A study of Homo sapiens with 21 samples.

Results

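MOLM-14 cells carrying the SYK hairpin shSYK_2 were compared with MOLM-14 cells carrying the SYK hairpin shSYK_1, 2 arrays against 2. These are 4 of the 21 arrays of the series, taken by the cell line and hairpin in their labels, with no measured value used in the choice. MOLM-14 is an established human myelomonocytic leukaemia line known for a KMT2A rearrangement and for a FLT3 receptor gene activated by an internal tandem duplication. Per the labels, MOLM-14 cells were infected in 2 separate transductions with shSYK_2, in 2 with shSYK_1 and in 3 with shLuc, a hairpin against luciferase, which human cells lack. Every group was put under puromycin at 1 µg/ml from 48 h after infection and was harvested for RNA on day 5, so the groups share the infection, the drug and the time. The same hairpins were used in U937, a line of monocytic character, and in HL-60, which resembles promyelocytes, and these arrays served to estimate the spread and as a comparison. A hairpin lowers a transcript without removing its gene, and all MOLM-14 arrays come from the same line, so p-values here measure the spread between transductions of established lines.

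SYK is a cytoplasmic tyrosine kinase that binds phosphorylated receptor tails and passes the signal to the phospholipase C, PI3 kinase and ERK branches. It is known as a partner of FLT3 in myeloid leukaemia, where its loss has been linked to maturation of the blasts. Myeloid maturation brings up surface receptors, NADPH oxidase, S100 proteins and lysosomal enzymes, while MYC drives growth genes and ATF4 drives the genes of amino acid supply under stress. A hairpin is cut by the cell into a short guide strand that pairs with its target RNA. Bases 2 to 8 of that strand, the seed, can also pair with other RNAs, so that 2 hairpins against the same gene are commonly compared.

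The 3 hairpin targets are shown because the comparison is between them. Each target of 21 bases is given 5′ to 3′ as in the labels, with the stretch opposite the seed of the antisense strand in capitals.
shSYK_2 target: gcaggccatcatcAGTCAGAa
shSYK_1 target: gcagcagaacagaCATGTCAa
shLuc target: cctaaggttaagtCGCCCTCg
The antisense strands of the SYK hairpins, with their seeds in capitals, are as follows.
shSYK_2 antisense: tTCTGACTgatgatggcctgc
shSYK_1 antisense: tTGACATGtctgttctgctgc
The SYK targets begin with the same 4 bases, carry the same base at 10 of 21 positions and have different seeds. Their GC content was 52.4% for shSYK_2, 47.6% for shSYK_1 and 57.1% for shLuc. Of 2370 mature human miRNAs in the RefSeq table of GRCh38.p14, 0 had the seed of shSYK_2 and 0 that of shSYK_1. SYK lies on chromosome 9, and the positions of the targets within its transcript were not analysed here.

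The arrays measured 22277 probe sets as intensities, which were taken to log2 and reduced to 12165 genes, each by its brightest probe set. The median intensity of the 7 MOLM-14 arrays lay between 19.6 and 20.3 and the upper quartile between 134.5 and 136.4. In shLuc cells the line markers behaved as follows on the log2 scale. FLT3 averaged 9.95 in MOLM-14 cells, 4.48 in U937 and 7.11 in HL-60. MPO, a granule enzyme of promyelocytes, averaged 6.15 in MOLM-14 cells, 3.39 in U937 and 12.8 in HL-60. The stem-like factor MEIS1 was at 8.14 in MOLM-14 cells, 9.23 in U937 and 2.74 in HL-60, while the monocytic receptor CSF1R was dim everywhere, at 4.43, 3.92 and 4.07, and HOXA9, HOXA10, CD33 and LYZ were not analysed here. For HL-60 shSYK_2 replicate 1 the labels conflict, since its title and treatment give shSYK_2 and its source name shSYK_1, and its upper quartile of intensity was 122.3. It was kept in shSYK_2, and some genes that differ strongly between the hairpins were alike on both arrays of that group. H2BC12, a histone gene, averaged 9.93 ± 0.0109 in HL-60 with shSYK_2, against 9.12 ± 0.00104 with shSYK_1 (SD, n = 2 each) and 8.66 ± 0.0623 with shLuc (SD, n = 3). NFU1, a mitochondrial protein, averaged 8.31 ± 0.0253 with shSYK_2, against 6.57 ± 0.0336 with shSYK_1 (SD, n = 2 each). The cyclin gene CCNE2 was less alike on the shSYK_2 arrays, at 5.85 ± 0.6, against 7.62 ± 0.0851 with shSYK_1 (SD, n = 2 each). These genes were chosen after their values were seen. The array enters no group mean of MOLM-14, and it touches the error estimate, the HL-60 values and every comparison of MOLM-14 with the other lines.

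SYK itself was lower with shSYK_2 than with shSYK_1. On its brighter probe set the log2 intensity was 5.62 and 5.35 on the shSYK_2 arrays, against 6.16 and 6.16 on the shSYK_1 arrays and 8.49, 8.42 and 8.44 on the shLuc arrays. The 3 groups did not overlap, and 12.9% of the shLuc intensity remained with shSYK_2 and 20.5% with shSYK_1. The difference between the SYK hairpins was -0.67 log2 (SE 0.0895, limma adjusted p = 2.62e-05). On the dimmer probe set the values were 3.90 and 3.68 with shSYK_2, against 4.09 and 3.90 with shSYK_1 and 5.79, 5.85 and 5.88 with shLuc. There the hairpins touched at 3.90 and their difference of -0.20 did not pass the test over all probe sets (limma adjusted p = 0.132). By this probe set 24.1% of the shLuc intensity remained with shSYK_2 and 27.8% with shSYK_1, at low intensities that limit how far a difference can be measured. The hairpins were therefore called unequal in remaining SYK RNA by the brighter probe set only. The part of the remaining SYK RNA in the gene differences below was not tested.

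Over all genes, 1600 were higher with shSYK_2 than with shSYK_1 (13.2% of those tested) and 1555 were lower (12.8%), by limma over all 21 arrays with a Benjamini-Hochberg adjusted p below 0.05. Throughout, called means past that threshold. The median size of a called difference was 0.49 log2, and among the called genes 146 were higher and 198 lower by more than 1 log2. Replicates lay closer together than the hairpins did, since the median absolute difference over all genes was 0.085 log2 between the shSYK_2 arrays, 0.114 between the shSYK_1 arrays and 0.162 between the group means. The groups overlapped in 2 of the 3155 called genes. A test against a minimum difference of 0.5 log2 called 432 genes. Against shLuc, 1030 genes rose with shSYK_2 (8.47%) and 988 fell (8.12%), and 1577 rose with shSYK_1 (13%) and 1519 fell (12.5%). Both hairpins are set against the same 3 shLuc arrays, so their values are given side by side. The counts for shSYK_2 were as low as 514 and 565 without MOLM-14 shSYK_2 replicate 2.

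**Figure D1:**
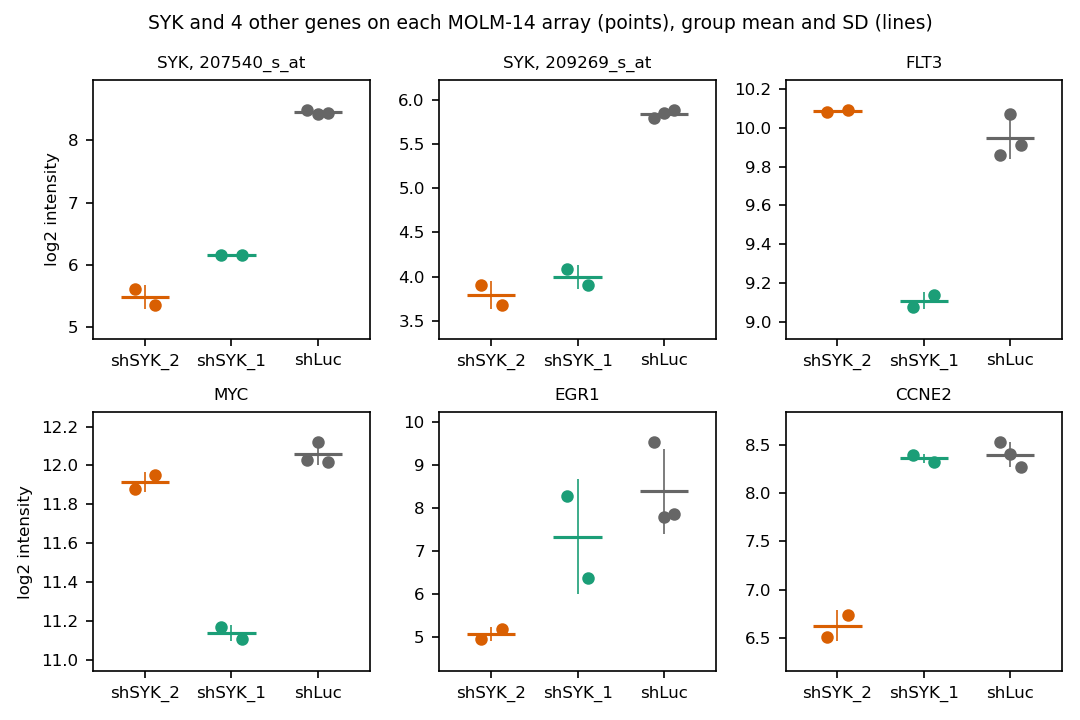
Log2 intensity of SYK (2 probe sets), FLT3, MYC, EGR1 and CCNE2 on each MOLM-14 array (points) with the group mean and SD (lines), for shSYK_2, shSYK_1 and shLuc from left to right; each panel has its own log2 axis. SYK is lowest with shSYK_2 on its brighter probe set, FLT3 and MYC lie near shLuc with shSYK_2 and below it with shSYK_1, and CCNE2 is low with shSYK_2 alone.

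The receptor kinase gene FLT3 and MYC, a transcription factor of growth genes, were both higher with shSYK_2. FLT3 was at 10.08 and 10.09 with shSYK_2, against 9.08 and 9.14 with shSYK_1 and 9.86, 10.07 and 9.91 with shLuc. The shSYK_2 arrays lay at the upper edge of the shLuc arrays and the shSYK_1 arrays well below them. The difference was 0.98 log2, or 1.97-fold (SE 0.159, limma adjusted p = 0.000187). Against shLuc, FLT3 fell with shSYK_1 (-0.84, limma adjusted p = 0.000366) and measured 0.14 with shSYK_2, which did not pass (0.597). MYC was at 11.88 and 11.95 with shSYK_2, against 11.17 and 11.11 with shSYK_1 and 12.03, 12.12 and 12.02 with shLuc. The shSYK_2 arrays lay just below the shLuc arrays and the shSYK_1 arrays well below them. The difference was 0.78 log2 (SE 0.0755, limma adjusted p = 8.65e-07), with -0.14 for shSYK_2 against shLuc (0.201) and -0.92 for shSYK_1 against shLuc (6.07e-08).

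Genes of mature monocytes and neutrophils were lower with shSYK_2 than with shSYK_1. Of 27 measured monocyte and macrophage genes, 13 were called lower and 0 higher by limma (14 and 0 at an unadjusted p below 0.05), with a median difference of -0.36 log2 beside 0.01 over all genes. Leaving out 1 array moved some of the counts of 0, 1 or 2 given below by 1 gene. Of 21 late neutrophil genes, 11 were lower and 0 higher (11 and 0 unadjusted), with a median of -0.38. Against shLuc, 15 of the monocyte genes rose and 1 fell with shSYK_1, and 2 rose and 5 fell with shSYK_2. For the neutrophil genes 10 rose and 0 fell with shSYK_1 (12 and 0 unadjusted), and 0 rose and 3 fell with shSYK_2 (2 and 5 unadjusted). In bulk RNA, fewer mature cells and less of each transcript per cell cannot be told apart.

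S100A8 and S100A9, which form the calcium-binding protein calprotectin of neutrophils and monocytes, were among the genes with the largest differences. S100A8 was at 8.15 and 8.55 with shSYK_2, against 12 and 11.83 with shSYK_1 and 10.06, 9.97 and 10.10 with shLuc. The shLuc arrays lay between the hairpins, so that the shSYK_2 arrays were low and the shSYK_1 arrays high. The difference was -3.56 log2 (SE 0.129, limma adjusted p = 2.33e-11), an 11.8-fold lower intensity with shSYK_2. S100A9 was at 6.06 and 6.53 with shSYK_2, against 9.30 and 9.28 with shSYK_1 and 7.34, 7.29 and 7.39 with shLuc, a difference of -3 log2 in the same order of groups.

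CD36, a scavenger receptor of macrophages, was at 4.72 and 4.81 with shSYK_2, against 8.36 and 8.17 with shSYK_1 and 6.19, 5.84 and 6.08 with shLuc. Its difference of -3.50 log2 (SE 0.184, limma adjusted p = 1.02e-09) was an 11.3-fold lower intensity with shSYK_2. The co-stimulatory molecule CD86 was at 3.68 and 3.68 with shSYK_2, against 6.48 and 6.09 with shSYK_1 and 4.96, 4.8 and 4.76 with shLuc (-2.61). The pattern receptor TLR2 was at 5.73 and 5.46 with shSYK_2, against 7.22 and 7.10 with shSYK_1 and 6.22, 6.55 and 6.44 with shLuc (-1.56). In each of these the 3 groups were apart, with shLuc in the middle. MNDA, a nuclear protein of myeloid cells, had the same order, at 5.79 and 6.16 with shSYK_2, against 8.79 and 8.72 with shSYK_1 and 7.36, 7.12 and 7.22 with shLuc (-2.78).

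Another set of genes was near shLuc with shSYK_2 and high with shSYK_1. CYBB, the catalytic subunit of the phagocyte NADPH oxidase, was at 3.97 and 4.09 with shSYK_2, against 6.71 and 6.65 with shSYK_1 and 4.22, 3.99 and 3.86 with shLuc (-2.65, SE 0.109, limma adjusted p = 8.11e-11). SLPI, a secreted inhibitor of neutrophil proteases, was at 5.77 and 5.93 with shSYK_2, against 8.38 and 8.25 with shSYK_1 and 6.04, 5.91 and 5.98 with shLuc (-2.47). NAV3, a neuron navigator protein, was at 3.59 and 4 with shSYK_2, against 6.49 and 6.17 with shSYK_1 and 3.66, 3.92 and 3.85 with shLuc (-2.53). ARID5B, a chromatin factor, likewise differed by -2.25, with -0.16 for shSYK_2 against shLuc (limma adjusted p = 0.571) and 2.10 for shSYK_1 against shLuc (4.10e-08). CYBB, NAV3 and ARID5B were dim with shLuc, at means of 4.02, 3.81 and 4.03, which limits how far a fall with shSYK_2 could be measured. CEBPD, a transcription factor of late granulocytes, differed by -1.16, and the haemoglobin receptor CD163, dim on every array at 2.86 and 2.78 with shSYK_2 against 3.70 and 3.88 with shSYK_1, by -0.96.

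**Figure D2:**
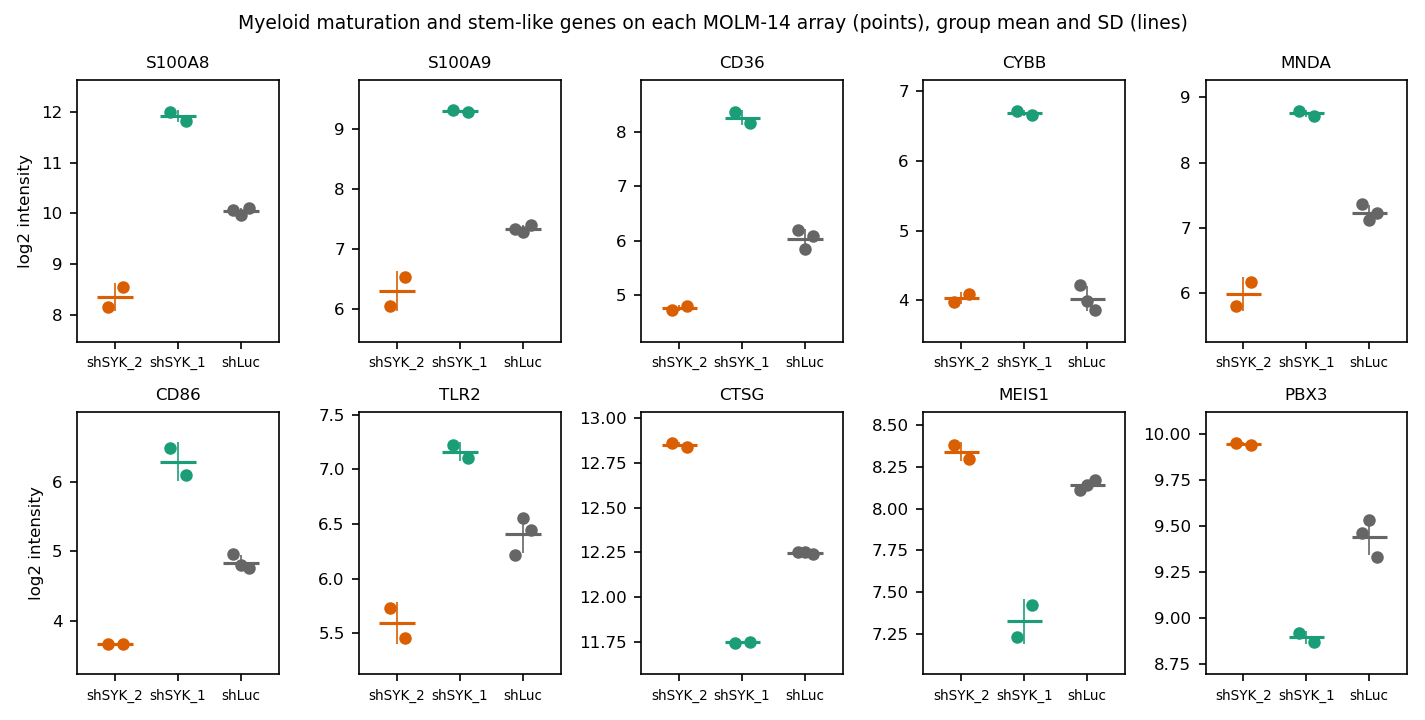
Log2 intensity of 8 maturation genes and of MEIS1 and PBX3 on each MOLM-14 array (points) with the group mean and SD (lines), shSYK_2 left of shSYK_1 and shLuc; each panel has its own log2 axis. S100A8, S100A9, CD36, MNDA, CD86 and TLR2 have shLuc between the hairpins. CYBB is dim with shLuc and raised with shSYK_1 alone, and CTSG, MEIS1 and PBX3 run the other way, with shSYK_2 highest.

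Primary granule genes, made at the promyelocyte stage, did not move as a block. Of 11 measured, 2 were higher and 3 lower with shSYK_2 (median -0.03). Cathepsin G (CTSG) was at 12.86 and 12.84 with shSYK_2, against 11.74 and 11.75 with shSYK_1 and 12.25, 12.25 and 12.24 with shLuc. Its shSYK_2 arrays were above and its shSYK_1 arrays below all shLuc arrays, a difference of 1.10 log2 (SE 0.0688, limma adjusted p = 7.84e-09). CST7, an inhibitor of cysteine proteases, was also higher (0.89). MS4A3, a marker of granulocyte-monocyte progenitors, was counted in this list although it is a membrane protein. It was at 6.75 and 7.02 with shSYK_2, against 9.07 and 8.87 with shSYK_1 and 8.01, 8.02 and 8.07 with shLuc (-2.09). Proteinase 3 (PRTN3) was lower too (-0.88).

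Of 19 lineage transcription factors, 6 were lower and 0 higher with shSYK_2 by limma (6 and 2 unadjusted), with a median of -0.03. With HL-60 shSYK_2 replicate 1 or replicate 2 left out, 2 were called higher. KLF6, a zinc-finger factor of activated macrophages, differed by -0.92, MITF, known from pigment cells and osteoclasts, by -0.72, the myeloid master factor SPI1 by -0.60 from low intensities, and ETV6 by -0.59. Among 9 measured HOXA and stem-like genes, 3 were higher and 0 lower by limma (3 and 1 unadjusted), with a median of 0.05. These were PBX3 and MEIS1, homeodomain partners of the HOXA proteins in KMT2A-rearranged leukaemia, and SOX4. MEIS1 was at 8.38 and 8.30 with shSYK_2, against 7.23 and 7.42 with shSYK_1 and 8.11, 8.14 and 8.17 with shLuc, a difference of 1.01 log2 (SE 0.140, limma adjusted p = 3.88e-05). PBX3 was at 9.95 and 9.94 with shSYK_2, against 8.92 and 8.87 with shSYK_1 and 9.46, 9.53 and 9.33 with shLuc (1.05). Both were below shLuc with shSYK_1, MEIS1 by -0.81 and PBX3 by -0.55, and SOX4 differed by 0.52.

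Genes of ribosome production and other MYC targets were higher with shSYK_2. Of 28 measured, 19 were called higher and 0 lower by limma (20 and 1 unadjusted), with a median difference of 0.33 log2. Without MOLM-14 shSYK_1 replicate 1, 12 were higher, and 1 was lower without MOLM-14 shLuc replicate 2 or without U937 shLuc replicate 1 or 2. The list's median relative to the shLuc mean was 0.064 and 0.086 on the shSYK_2 arrays, against -0.282 and -0.192 on the shSYK_1 arrays. Against shLuc, 0 rose and 15 fell with shSYK_1 by limma (0 and 18 unadjusted), while 4 rose and 2 fell with shSYK_2. The 4 became 1 without either MOLM-14 shSYK_2 array.

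BYSL, which matures the small ribosomal subunit, was at 8.15 and 8.16 with shSYK_2, against 7.43 and 7.39 with shSYK_1 and 7.92, 7.84 and 7.88 with shLuc (0.75, SE 0.0841, limma adjusted p = 4.57e-06). PNO1, another factor of that subunit, differed by 0.73, ornithine decarboxylase (ODC1), which starts polyamine synthesis, by 0.54, and the pseudouridine synthase DKC1 by 0.50. The cytosolic ribosomal proteins themselves, 20 measured, had 0 called in either direction by limma (1 higher and 0 lower unadjusted) and a median of 0.05.

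The ATF4 amino acid response differed most between the hairpins among the 30 lists by its median, 0.95 log2. Of 22 measured genes, 19 were higher with shSYK_2 and 1 was lower. The list's median relative to the shLuc mean was 0.109 and 0.118 on the shSYK_2 arrays, against -0.870 and -0.630 on the shSYK_1 arrays and -0.077, 0.184 and -0.091 on the shLuc arrays. The shSYK_1 arrays thus lay apart and the shSYK_2 arrays within the range of shLuc. Against shLuc, 1 member rose and 19 fell with shSYK_1, and 4 rose and 2 fell with shSYK_2. With 1 array left out, the 4 became 1 without MOLM-14 shSYK_2 replicate 1 and 9 without MOLM-14 shLuc replicate 2, and the 2 became 0 without MOLM-14 shSYK_2 replicate 2.

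**Figure D3:**
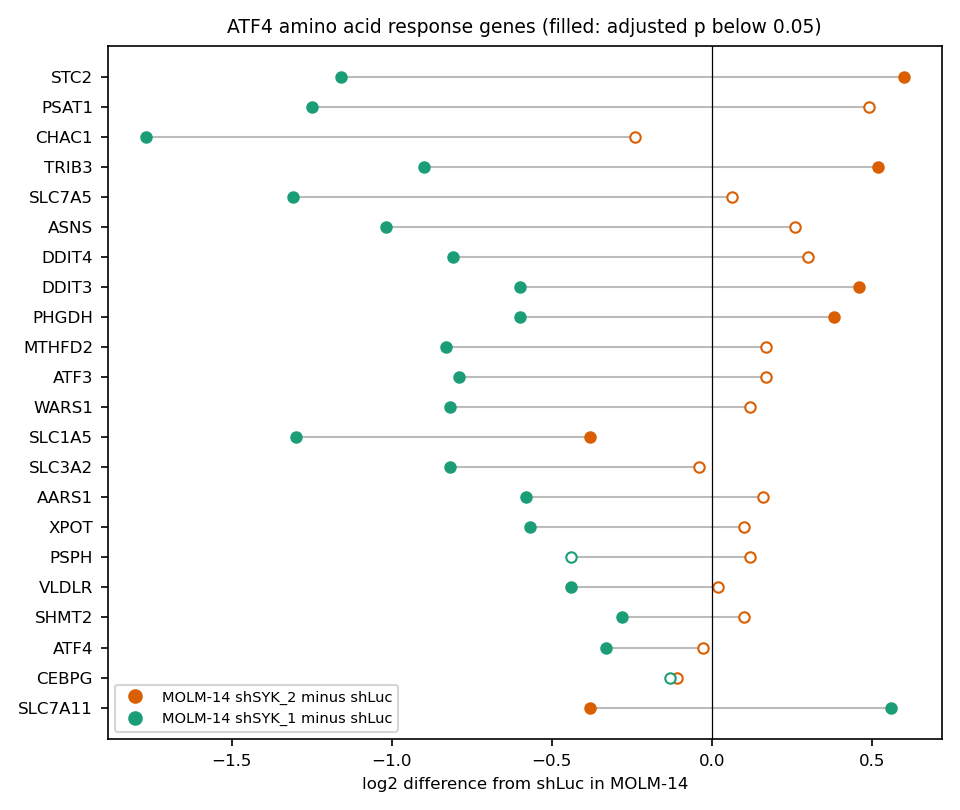
Log2 difference from shLuc in MOLM-14 for the 22 measured genes of the ATF4 amino acid response, shSYK_2 and shSYK_1 joined by a line for each gene; filled points have a limma adjusted p below 0.05. With shSYK_1 19 genes fell, SLC7A11 rose, and PSPH and CEBPG did not pass, while with shSYK_2 most points lie near 0.

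STC2, a secreted glycoprotein of the stress response, was at 6.45 and 6.23 with shSYK_2, against 4.47 and 4.70 with shSYK_1 and 5.49, 6.09 and 5.65 with shLuc. Its difference of 1.76 log2 (SE 0.177, limma adjusted p = 1.35e-06) was a 3.38-fold higher intensity with shSYK_2. PSAT1, an enzyme of serine synthesis, was at 9.41 and 9.32 with shSYK_2, against 7.21 and 8.05 with shSYK_1 and 8.73, 9.13 and 8.78 with shLuc (1.73). In both genes the shSYK_1 arrays lay below every shLuc array and the shSYK_2 arrays above every one. The rise with shSYK_2 against shLuc passed for STC2 (0.60, limma adjusted p = 0.0176) and not for PSAT1 (0.49, 0.0825). CTH, which makes cysteine from cystathionine and stood outside the list, had the largest rise of the named genes, at 7.46 and 7.23 with shSYK_2, against 4.68 and 5.35 with shSYK_1 and 6.56, 7.36 and 6.36 with shLuc (2.33, limma adjusted p = 1.60e-06).

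The pseudokinase TRIB3, an inhibitor of ATF4, differed by 1.41, the neutral amino acid transporter SLC7A5 by 1.37 and the tryptophanyl-tRNA synthetase WARS1 by 0.94. SLC7A5 was at 9.98 and 9.93 with shSYK_2, against 8.45 and 8.72 with shSYK_1 and 9.90, 10.07 and 9.72 with shLuc. The exception was SLC7A11, the cystine transporter, at 7.75 and 7.63 with shSYK_2, against 8.71 and 8.56 with shSYK_1 and 8.01, 8.26 and 7.96 with shLuc (-0.94, limma adjusted p = 7.87e-07). It rose with shSYK_1 while the other called members fell. ATF4 RNA itself differed by 0.31. XBP1, a transcription factor of endoplasmic reticulum stress outside this list, was at 9.98 and 9.99 with shSYK_2, against 8.26 and 8.23 with shSYK_1 and 9.51, 9.58 and 9.5 with shLuc (1.74, SE 0.0781, limma adjusted p = 1.87e-10).

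ATF4 binds, with a C/EBP partner, to composite elements for which the letters TGATGNAA were searched on both strands in the 250 bases before each start. The RefSeq promoter table of GRCh38.p14 held a match in 3.14% of its 35116 promoters and in 2.15% of the 14283 promoters of genes tested. Of 31 promoters of 19 measured list members, 6 held a match (19.4%), each of a different gene. Windows of 60 bases are shown for the 5 of these genes that were higher with shSYK_2, on the strand of the gene, with the match in capitals. They were chosen after their values were seen.
ASNS chr7:97872443-97872502, minus strand: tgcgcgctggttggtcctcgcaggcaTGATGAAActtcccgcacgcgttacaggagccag
CHAC1 chr15:40953236-40953295, plus strand: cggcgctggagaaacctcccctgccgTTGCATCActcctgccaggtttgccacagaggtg
AARS1 chr16:70289660-70289719, minus strand: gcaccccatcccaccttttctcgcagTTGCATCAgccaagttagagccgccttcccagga
SLC1A5 chr19:46784878-46784937, minus strand: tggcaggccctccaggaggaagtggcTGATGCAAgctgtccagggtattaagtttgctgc
ATF3 chr1:212565190-212565249, plus strand: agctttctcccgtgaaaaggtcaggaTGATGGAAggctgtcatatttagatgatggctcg
The matches of CHAC1 and AARS1 lie on the opposite strand and so are read in reverse. Their genes differed by 1.28 log2 for ASNS (asparagine synthetase), 1.53 for CHAC1 (which breaks down glutathione), 0.74 for AARS1 (alanyl-tRNA synthetase), 0.92 for SLC1A5 (a glutamine transporter) and 0.96 for ATF3 (a stress transcription factor). CEBPG, the remaining gene with a match, measured 0.02. Of the 29 promoters of members called higher with shSYK_2, 5 held a match (17.2%). The list was built from genes of the ATF4 response, so these shares say nothing about the hairpins. A match is a run of letters and not a measured binding site.

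Of 16 sterol and fatty acid synthesis genes, 2 were higher and 6 lower with shSYK_2 (median -0.18). Lanosterol synthase (LSS) was at 6.69 and 6.69 with shSYK_2, against 7.94 and 7.94 with shSYK_1 and 8.04, 7.81 and 7.96 with shLuc (-1.25, SE 0.0818, limma adjusted p = 1.41e-08), so that only shSYK_2 lay away from shLuc. HMGCS1, at the entry of the mevalonate pathway, differed by -0.65 and INSIG1, which restrains that pathway, by -0.41. Acetyl-CoA carboxylase (ACACA) differed by 0.39 (limma adjusted p = 0.00356), but by 0.16 over all its probe sets (0.242) and by 0.25 without MOLM-14 shSYK_1 replicate 1 (0.0802). Without that array 0 of the list were higher, and 1 was without MOLM-14 shSYK_2 replicate 1.

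Glycolysis had 2 of 18 genes higher and 2 lower (median -0.06). Enolase 1 (ENO1) differed by 0.34 and hexokinase 1 (HK1) by -0.41. Phosphofructokinase PFKP (0.34) lost its call without MOLM-14 shSYK_1 replicate 1 (0.24, limma adjusted p = 0.0629), which left 1 higher. Aldolase A (ALDOA, -0.25) lost its call without MOLM-14 shSYK_2 replicate 1 (-0.23, limma adjusted p = 0.0518), which left 1 lower, and 4 were lower without HL-60 shSYK_2 replicate 1 or 2.

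Oxidative phosphorylation was lower with shSYK_2 in 16 of 22 genes and higher in 0 by limma (18 and 0 unadjusted), with a median of -0.29. The list's median relative to shLuc was -0.033 and -0.074 on the shSYK_2 arrays, against 0.241 and 0.267 on the shSYK_1 arrays. Against shLuc, 17 rose and 1 fell with shSYK_1, and 1 rose and 3 fell with shSYK_2. The 17 became 9 without MOLM-14 shSYK_1 replicate 2. NDUFA1, a complex I subunit, was at 10.63 and 10.61 with shSYK_2, against 11.28 and 11.22 with shSYK_1 and 10.80, 10.70 and 10.73 with shLuc (-0.64, limma adjusted p = 8.10e-07). The complex III subunit UQCRC1 differed by -0.67, the complex I subunit NDUFS1 by -0.53 and the ATP synthase subunit ATP5MC3 by -0.48.

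Most measured genes of DNA replication and of mitosis fell against shLuc with each hairpin. Of 28 genes of the G1/S transition and DNA replication, 6 were higher and 5 lower with shSYK_2 than with shSYK_1 (median -0.08). Against shLuc, 25 fell with shSYK_2 and 23 with shSYK_1, with medians of -0.50 and -0.51, and 0 rose with either by limma (0 unadjusted). The count of 5 lower became 2 without MOLM-14 shSYK_1 replicate 1 or shSYK_2 replicate 1, and 3 without shSYK_2 replicate 2. The array medians of the list overlapped, at -0.551 and -0.469 with shSYK_2 and -0.556 and -0.433 with shSYK_1.

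CCNE2, the cyclin E2 that drives entry into S phase, was among the 5 members called lower with shSYK_2. It was at 6.51 and 6.74 with shSYK_2, against 8.40 and 8.33 with shSYK_1 and 8.53, 8.41 and 8.27 with shLuc. Its difference of -1.73 log2 (SE 0.215, limma adjusted p = 1.22e-05) was a 3.32-fold lower intensity, with -0.04 for shSYK_1 against shLuc (0.930). Some members of the replication machinery, among the 6 called higher, went the other way. MCM2, a helicase subunit, was at 9.25 and 9.10 with shSYK_2, against 8.47 and 8.77 with shSYK_1 and 9.66, 9.65 and 9.60 with shLuc (0.56), so that both hairpins lay below shLuc and shSYK_1 further. The clamp loader subunit RFC3 differed by 0.48 and thymidylate synthase (TYMS) by 0.44.

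Of 27 genes of G2/M and mitosis, 1 was higher and 5 lower with shSYK_2 than with shSYK_1 (median -0.12). Against shLuc, 21 fell with shSYK_2 and 15 with shSYK_1, and 0 rose with either by limma (0 unadjusted). The 5 lower became 3 without MOLM-14 shSYK_1 replicate 2 or shSYK_2 replicate 1, the 1 higher became 0 without any of the 4 hairpin arrays, and the 15 became 9 without MOLM-14 shSYK_1 replicate 2. Topoisomerase 2A (TOP2A), which untangles replicated DNA, was at 9.10 and 9.20 with shSYK_2, against 10.16 and 9.96 with shSYK_1 and 10.27, 10.36 and 10.25 with shLuc (-0.91, SE 0.122, limma adjusted p = 2.89e-05). The mitotic kinase AURKA differed by -0.46 and the kinetochore motor CENPE by -0.42. Cyclin B2 (CCNB2, -0.30) lost its call without MOLM-14 shSYK_1 replicate 2 (-0.24, limma adjusted p = 0.0979) or shSYK_2 replicate 1 (-0.25, 0.0985).

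Among 15 cyclins, CDKs and CDK inhibitors of G1, 2 were higher and 3 lower, and 1 was lower without MOLM-14 shSYK_1 replicate 1 or shSYK_2 replicate 1 (median at 0). Cyclin D3 (CCND3) was at 9.15 and 9.18 with shSYK_2, against 9.73 and 9.73 with shSYK_1 and 9.64, 9.49 and 9.53 with shLuc (-0.57), and its partner CDK4 differed by 0.34. Cyclin D2 (CCND2) differed by 0.36 on its brightest probe set and by -0.02 as the mean over its probe sets (limma adjusted p = 0.945), so its direction is not settled. CDK6 (-0.74) was dim and lost its call without MOLM-14 shSYK_1 replicate 1 (-0.42, limma adjusted p = 0.132) or shSYK_2 replicate 1 (-0.63, 0.0662).

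Of 15 p53 targets, 4 were higher and 1 lower with shSYK_2 (median 0.21), and 0 were lower without MOLM-14 shSYK_1 replicate 1 or shSYK_2 replicate 1. Against shLuc, 8 rose and 1 fell with shSYK_2, and 5 rose and 1 fell with shSYK_1. The 8 became 5 without MOLM-14 shSYK_2 replicate 2 and the 5 became 2 without MOLM-14 shSYK_1 replicate 1. Sestrin 1 (SESN1), a stress-induced inhibitor of mTORC1, was at 8.51 and 8.62 with shSYK_2, against 7.53 and 7.49 with shSYK_1 and 8.03, 7.81 and 7.93 with shLuc (1.05, limma adjusted p = 4.72e-06). The repair protein XPC differed by 0.40. The death receptor TNFRSF10B (0.38) measured 0.13 as the mean over its probe sets (limma adjusted p = 0.440), and BAX (0.37), a pore former of mitochondria, measured 0.33 without MOLM-14 shSYK_1 replicate 1 (0.0530).

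Of 17 histone genes, 4 were higher and 1 lower (median 0.13), and 2 were lower without any 1 of the shSYK_2 arrays of U937 or HL-60. The H2A gene H2AC6 was at 7.09 and 6.97 with shSYK_2, against 5.10 and 5.37 with shSYK_1 and 5.53, 5.26 and 5.56 with shLuc (1.79). H2BC5 was at 7.93 and 7.89 with shSYK_2, against 6.19 and 6.03 with shSYK_1 and 6.14, 6.26 and 6.27 with shLuc (1.80), and H2BC12 differed by 1.39. The shSYK_2 arrays were the high ones in all 3. The variant histone H2AZ1 was lower (-0.30). Histone genes are near-identical copies, so a probe set can bind the transcripts of several and the gene assignment is uncertain.

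**Figure D4:**
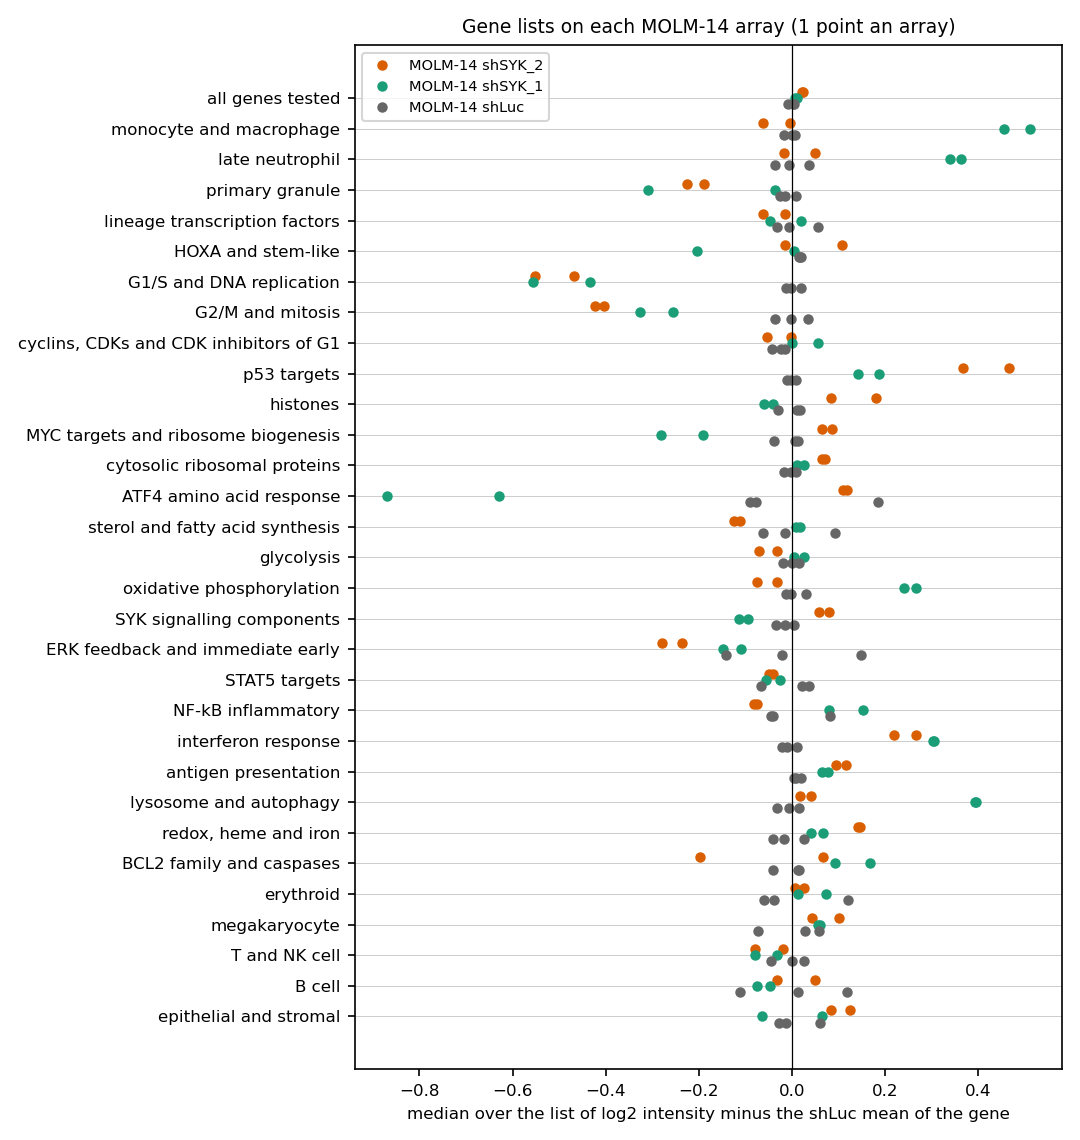
Median over each gene list of the log2 intensity minus the shLuc mean of the same gene, 1 point for each MOLM-14 array, with shSYK_2, shSYK_1 and shLuc from top to bottom within a row. The shSYK_1 arrays stand away from shLuc for the monocyte, neutrophil, MYC, ATF4, oxidative phosphorylation and lysosome lists, while both hairpins lie below shLuc for the lists of G1/S and of G2/M.

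Of 25 SYK signalling components, 7 were higher and 6 lower with shSYK_2 (median 0.08), SYK and FLT3 being members. The SRC family kinase FGR was lower (-1.08), the lipid phosphatase INPP5D, a brake on PI3 kinase signalling, was higher (0.79), and so was PLCG2 (0.69), a phospholipase that SYK activates. PLCG2 was at 9.11 and 9.23 with shSYK_2, against 8.47 and 8.49 with shSYK_1 and 8.83, 8.97 and 8.84 with shLuc, with the hairpins on opposite sides of shLuc.

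Of 23 ERK feedback and immediate early genes, 2 were higher and 6 lower (median -0.14). JUN, a subunit of AP-1, was at 4.56 and 4.54 with shSYK_2, against 6.34 and 6.15 with shSYK_1 and 4.55, 4.4 and 4.73 with shLuc (-1.69, limma adjusted p = 8.90e-09), and thus high with shSYK_1 alone. FOS, its partner, was at 5.94 and 5.87 with shSYK_2, against 8.23 and 7.58 with shSYK_1 and 7.85, 7.01 and 7.01 with shLuc (-2), and thus low with shSYK_2. EGR1 was at 4.95 and 5.18 with shSYK_2, against 8.27 and 6.38 with shSYK_1 and 9.53, 7.78 and 7.85 with shLuc. Replicate 1 was high in both groups of larger spread, and the difference of -2.26 (limma adjusted p = 0.00382) lost its call without MOLM-14 shSYK_1 replicate 1 (-1.31, 0.0947). The ETS factor ETV5, at 7.99 and 7.81 with shSYK_2, against 6.70 and 6.63 with shSYK_1 and 7.02, 7.13 and 6.82 with shLuc, ran the other way (1.24).

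Of 18 STAT5 targets, 3 were higher and 4 lower (median -0.01), and 2 were lower without MOLM-14 shSYK_1 replicate 1. PIM1, a kinase induced by STAT5 downstream of mutant FLT3, was at 6.91 and 7.06 with shSYK_2, against 5.77 and 5.87 with shSYK_1 and 6.01, 6 and 6.19 with shLuc (1.16, SE 0.207, limma adjusted p = 0.000420). The repressor BCL6 was at 5.61 and 5.55 with shSYK_2, against 6.74 and 6.74 with shSYK_1 and 5.75, 5.55 and 5.94 with shLuc (-1.16). PIM1 was thus high with shSYK_2 and BCL6 high with shSYK_1, each with the other hairpin near shLuc.

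Inflammatory NF-kB genes were mostly lower with shSYK_2 where they differed. Of 22 measured, 1 was higher and 9 lower (median -0.19). The 1 higher became 0 without MOLM-14 shSYK_1 replicate 1 or either shSYK_2 array, and 2 without HL-60 shLuc replicate 1. The chemokine CXCL8 was at 3.81 and 3.67 with shSYK_2, against 7.64 and 6.24 with shSYK_1 and 7.01, 5.53 and 5.63 with shLuc (-3.20, SE 0.395, limma adjusted p = 1.18e-05). The shSYK_2 arrays were low, and replicate 1 was the high array of the other groups, as for EGR1. Interleukin 1 beta (IL1B) was at 4.10 and 4.47 with shSYK_2, against 6.08 and 6.21 with shSYK_1 and 5.60, 5.21 and 5.34 with shLuc (-1.86), TNFAIP2 differed by -1.02 and the mitochondrial superoxide dismutase SOD2 by -0.81.

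Of 28 measured interferon response genes, 9 rose and 1 fell with shSYK_2, and 12 rose and 2 fell with shSYK_1, and the 9 became 3 without MOLM-14 shSYK_2 replicate 2. Between the hairpins 5 were higher and 6 lower with shSYK_2 (median -0.09). IRF9, the DNA-binding part of the interferon-activated complex, was lower (-1.20), as was IFI6 (-0.83), while the transcription factor IRF1 (0.80) and the ISG15-conjugating enzyme UBE2L6 (0.57) were higher. UBE2L6 was at 6.63 and 6.64 with shSYK_2, against 6.07 and 6.06 with shSYK_1 and 4.72, 5.05 and 5.11 with shLuc, so that both hairpins lay above shLuc.

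Of 21 antigen presentation genes, 7 were higher and 2 lower (median 0.09), and 4 were higher without MOLM-14 shSYK_1 replicate 1 or shSYK_2 replicate 1. The class II chain HLA-DRA was at 8.06 and 8.28 with shSYK_2, against 6.80 and 7.03 with shSYK_1 and 7.06, 7.14 and 7.36 with shLuc (1.25), and the immunoproteasome subunits PSMB9 and PSMB8 differed by 0.54 and 0.38. CD86, described above, belongs to this list as well and was lower.

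Lysosome and autophagy genes were lower with shSYK_2 in 12 of 23 and higher in 0 by limma (16 and 1 unadjusted), with a median of -0.30. The 12 became 7 without MOLM-14 shSYK_1 replicate 2 or shSYK_2 replicate 1, and 1 was called higher without either of these or either HL-60 shSYK_2 array. The list's median relative to shLuc was 0.017 and 0.042 on the shSYK_2 arrays, against 0.394 and 0.396 on the shSYK_1 arrays. Against shLuc, 15 rose and 0 fell with shSYK_1 (17 and 0 unadjusted), and 7 rose and 1 fell with shSYK_2, of which 2 rose without MOLM-14 shSYK_2 replicate 2. Cathepsin A (CTSA) was at 8.33 and 8.30 with shSYK_2, against 9.27 and 9.19 with shSYK_1 and 8.29, 8.19 and 8.29 with shLuc (-0.92, limma adjusted p = 2.28e-08). The proton pump subunits ATP6V1A and ATP6V0D1, which acidify the lysosome, differed by -0.86 and -0.63, and cathepsin D (CTSD) by -0.79.

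Of 16 redox, heme and iron genes, 6 were higher and 5 lower (median 0.06), and 3 were higher without MOLM-14 shSYK_1 replicate 2 or shSYK_2 replicate 2. The catalytic subunit of glutathione synthesis, GCLC, was at 7.61 and 7.57 with shSYK_2, against 6.82 and 6.89 with shSYK_1 and 7.56, 7.39 and 7.38 with shLuc (0.74). KEAP1, which marks NRF2 for degradation, was higher (0.70), the NRF2 target NQO1 lower (-0.47), and SLC7A11 counts here too. UROS, a heme synthesis enzyme, was at 8.63 and 8.72 with shSYK_2, against 6.82 and 6.90 with shSYK_1 and 8.15, 8.30 and 8.12 with shLuc (1.82, SE 0.0988, limma adjusted p = 1.49e-09). NFU1, an iron-sulphur cluster carrier of mitochondria, was at 8.73 and 8.65 with shSYK_2, against 6.90 and 6.89 with shSYK_1 and 8.45, 8.55 and 8.54 with shLuc (1.79, SE 0.0725, limma adjusted p = 7.97e-11). In both genes the shSYK_1 arrays were low. With shSYK_2, UROS also rose against shLuc (0.48, limma adjusted p = 0.00128), while NFU1 did not pass (0.18, 0.0813).

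Of 22 BCL2 family and caspase genes, 3 were higher and 9 lower (median -0.12). The 3 became 1 without MOLM-14 shSYK_1 replicate 1 and the 9 became 4 without MOLM-14 shSYK_2 replicate 2. Caspase 1 (CASP1), which activates interleukin 1 beta, was at 8 and 7.97 with shSYK_2, against 8.73 and 8.81 with shSYK_1 and 8.07, 8.07 and 8.16 with shLuc (-0.78). The survival gene BCL2A1 was at 7.11 and 7.21 with shSYK_2, against 7.94 and 7.79 with shSYK_1 and 6.66, 6.33 and 6.36 with shLuc (-0.70), above shLuc with both hairpins. The death effectors PMAIP1 and BCL2L11 differed by 0.68 and -0.75.

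Among the other genes with the largest differences, MAP1B, a microtubule-associated protein, was at 6.49 and 6.34 with shSYK_2, against 4.25 and 4.03 with shSYK_1 and 5.56, 6.32 and 6.04 with shLuc (2.28, limma adjusted p = 1.28e-07). S100P, a calcium-binding protein, was at 9.03 and 8.82 with shSYK_2, against 6.79 and 7.05 with shSYK_1 and 7.45, 8.33 and 7.44 with shLuc (2). The remaining named rises were TBC1D16 (1.94), MANSC1 (1.87), APOLD1 (1.72), CD2BP2 (1.69) and NPTX2 (1.69). NPTX2, a secreted pentraxin, was at 8.18 and 8.04 with shSYK_2, against 6.46 and 6.39 with shSYK_1 and 6.62, 6.66 and 6.58 with shLuc, and was raised with shSYK_2 alone. CD2BP2, a splicing-associated protein, was low with shSYK_1 alone, at 6.80 and 6.80 with shSYK_2, against 5.06 and 5.16 with shSYK_1 and 6.70, 6.71 and 6.76 with shLuc.

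Among the remaining named falls, SGK1, a kinase of the PI3 kinase pathway, was at 4.68 and 4.88 with shSYK_2, against 7.35 and 7.03 with shSYK_1 and 5.94, 4.89 and 5.43 with shLuc (-2.41). The cytochrome P450 enzyme CYP1B1 was at 6.39 and 6.35 with shSYK_2, against 8.97 and 8.57 with shSYK_1 and 7.17, 6.90 and 7.07 with shLuc (-2.40), and IPCEF1 differed by -2.38. MYBPH, a myosin-binding protein, was at 3.69 and 3.71 with shSYK_2, against 6.03 and 6.19 with shSYK_1 and 5.71, 5.36 and 5.83 with shLuc (-2.41), and was thus low with shSYK_2 alone.

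Markers of other cell types were mostly dim. Of 57 measured genes of red cell, platelet, lymphocyte and epithelial or stromal lineages, 2 were higher and 2 lower with shSYK_2. The counts were 0 of 10 erythroid, 1 lower of 11 megakaryocyte, 0 of 14 T and NK, 0 of 7 B, and 2 higher and 1 lower of 15 epithelial and stromal genes, and by limma at an unadjusted p below 0.05 the erythroid, T and NK, and B lists also had 0. The medians of these lists were 0.01, -0.02, -0.03, 0.08 and 0.08. Their median log2 intensity was 3.10 to 3.23 on the shSYK_2 arrays, against 3.11 to 3.16 with shSYK_1 and 3.09 to 3.25 with shLuc. Their summed intensity was 1863 to 1949 with shSYK_2, against 1953 to 1955 with shSYK_1 and 1640 to 1660 with shLuc.

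Of these markers 5 exceeded a log2 intensity of 6, NKG7, KRT18, MUC1, ACTA2 and PECAM1. Smooth muscle actin (ACTA2) was at 8.65 and 8.82 with shSYK_2, against 7.22 and 7.22 with shSYK_1 and 7.01, 7.05 and 7.13 with shLuc (1.52), and PECAM1, also known from monocytes and endothelium, differed by -0.85. KRT18 (0.51) lost its call without MOLM-14 shSYK_1 replicate 2 (0.45, limma adjusted p = 0.111) or shSYK_2 replicate 1 (0.42, 0.138), which left 1 epithelial gene higher. The platelet receptor chain GP1BA (-0.32, limma adjusted p = 0.0410) lost its call without any 1 of the 4 hairpin arrays (adjusted p 0.0614 to 0.242) and with some arrays of U937 or HL-60 left out (0.05 to 0.0513). The part of these markers in the other results was not tested.

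The same hairpin difference in U937 gave 1443 genes higher with shSYK_2 (11.9%) and 1354 lower (11.1%), and in HL-60 1167 higher (9.59%) and 1537 lower (12.6%). The HL-60 counts fell to 635 higher without HL-60 shSYK_1 replicate 1 and 780 lower without HL-60 shSYK_2 replicate 1. Of the genes called in MOLM-14, 1269 were called in the same direction in U937, 40.2% of the MOLM-14 calls and 45.4% of the U937 calls, and 160 in the opposite direction. In HL-60, 1322 were called in the same direction, 41.9% of the MOLM-14 calls and 48.9% of the HL-60 calls, and 91 in the opposite direction. In all 3 lines 331 genes were called higher and 378 lower. Across the 12165 genes, which are not independent replicates, the difference in MOLM-14 correlated with that in U937 at r = 0.44 and with that in HL-60 at r = 0.48, as a description.

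**Figure D5:**
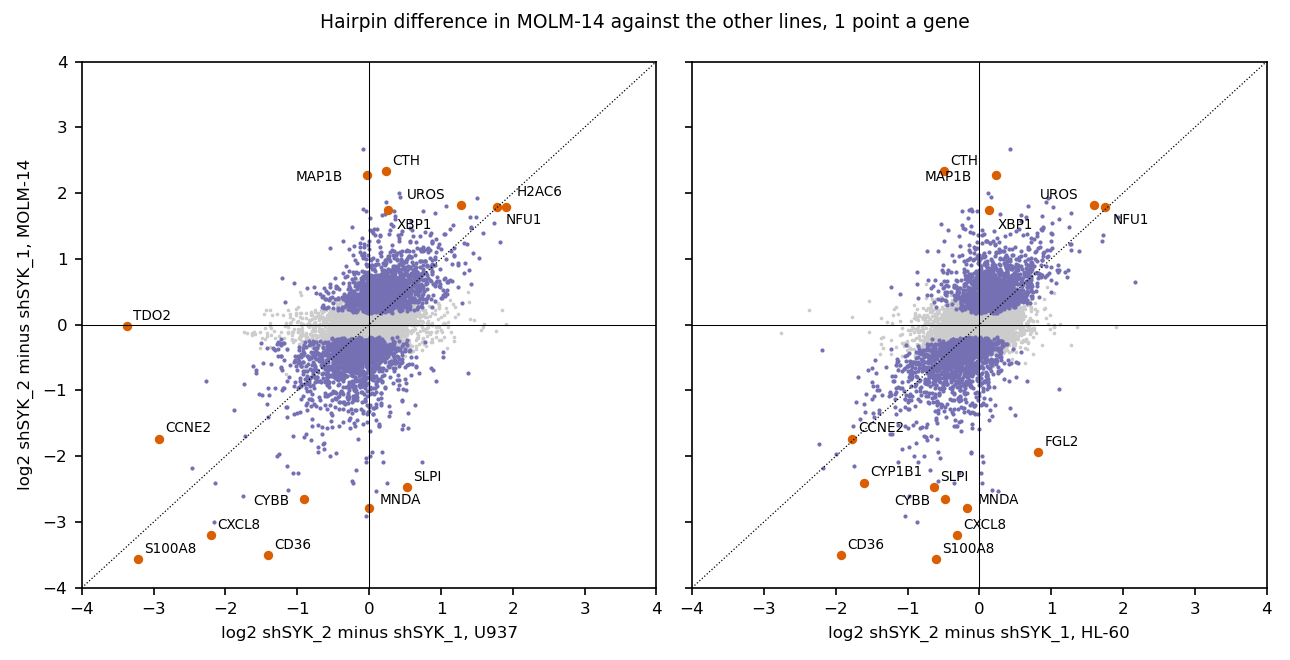
Log2 difference of shSYK_2 minus shSYK_1 for 12165 genes (points) in MOLM-14 (vertical axis) against U937 (left) and HL-60 (right), with genes called in MOLM-14 in violet, others in grey, labelled genes in orange and equality as a dotted line. NFU1 lies on the line in both panels, while CTH, XBP1 and MNDA lie within 0.5 log2 of 0 in both other lines. MAP1B does too, but was dim there.

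NFU1, UROS and CCNE2 were called in the same direction in each of the 3 lines. NFU1 was higher with shSYK_2 by 1.79 log2 in MOLM-14 cells, 1.78 in U937 and 1.74 in HL-60, and the difference between MOLM-14 and the mean of the other lines was 0.03 (limma adjusted p = 0.917). UROS was higher by 1.82, 1.28 and 1.60, and CCNE2 lower by -1.73, -2.93 and -1.77. The test of MOLM-14 against the mean of the other lines did not pass for UROS (0.38, limma adjusted p = 0.0550) or CCNE2 (0.62, 0.154). FLT3 was higher by 0.98 in MOLM-14 cells, by 0.23 in U937 (limma adjusted p = 0.371) and 0.87 in HL-60 (0.000885), and its line difference of 0.43 did not pass (0.186). MYC was called higher in each of the 3 lines, by 0.78 in MOLM-14 cells, 0.61 in U937 (limma adjusted p = 1.47e-05) and 0.31 in HL-60 (0.00691). Its line difference of 0.32 passed (limma adjusted p = 0.0344).

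Tested directly against the mean of U937 and HL-60, the hairpin difference was more positive in MOLM-14 for 788 genes (6.48%) and more negative for 653 (5.37%). Of these 1441 genes 1062 were called between the hairpins in MOLM-14, so that some differ between lines through U937 or HL-60, as CCND3 does (-0.57 in MOLM-14 cells, -1.04 in U937 and -0.86 in HL-60). These counts went down to 447 and 432 without MOLM-14 shSYK_2 replicate 1. The ATF4 list had 17 genes higher and 0 lower by limma (18 and 1 unadjusted), with a median of 0.86, and 17 and 0 without HL-60 shSYK_2 replicate 1. Within the other lines its members counted 9 higher and 0 lower in U937 (median 0.35) and 2 higher and 6 lower in HL-60 (median -0.15), and in HL-60 1 higher and 3 lower without HL-60 shSYK_2 replicate 1. CTH differed by 0.24 in U937 and -0.49 in HL-60, neither called, for a line difference of 2.46 (limma adjusted p = 3.95e-05), and STC2 by -0.09 and -0.11, for 1.85 (3.27e-05). STC2 was dim in the other lines, at means of 2.43 with shSYK_2 and 2.51 with shSYK_1 in U937 and 2.66 and 2.77 in HL-60. MAP1B was dim as well, at means of 3.30 with shSYK_2 and 3.34 with shSYK_1 in U937 and 3.41 and 3.18 in HL-60. A lower level could hardly be measured for such genes, and their line differences rest on the signal in MOLM-14.

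The cell cycle lists differed between the lines as well. For G1/S and DNA replication the line difference passed for 20 of 28 genes, all in the positive direction, with a median of 0.51, and for 19 without HL-60 shSYK_2 replicate 1. In U937 25 of the list were lower with shSYK_2 than with shSYK_1 (median -1.13), and in HL-60 5 were higher and 1 lower (median 0.12), of which 3 were higher without HL-60 shSYK_2 replicate 2. For G2/M and mitosis the line difference passed for 13 of 27, all positive (median 0.35), but for 5 without MOLM-14 shSYK_2 replicate 1, and 27 of 27 were lower in U937 (median -0.81). In HL-60 0 were higher and 7 lower by limma (0 and 10 unadjusted), with a median of -0.11 beside -0.12 in MOLM-14, and 2 were lower without HL-60 shSYK_1 replicate 1 or shSYK_2 replicate 1. The list was thus lower by far more in U937 than in HL-60 or MOLM-14 by its median. MCM2, for example, was higher by 0.56 in MOLM-14 and by 0.47 in HL-60 and lower by -0.87 in U937, so that U937 stood apart in this gene.

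Among myeloid genes, MNDA was lower by -2.78 in MOLM-14 cells and measured 0.00 in U937 (limma adjusted p = 0.986) and -0.17 in HL-60 (0.242). Its line difference was -2.70 (limma adjusted p = 9.58e-10), and it was bright in both other lines, at means of 10.62 with shSYK_2 and 10.61 with shSYK_1 in U937. SLPI was lower in MOLM-14 and HL-60 (-0.64) and higher in U937 (0.53), and MS4A3 was higher in U937 (0.74). S100A8 was lower in all 3, by -3.56 in MOLM-14 cells, -3.22 in U937 and -0.61 in HL-60, and CD36 by -3.50, -1.41 and -1.92. The monocyte list had 7 lower and 3 higher in U937 and 15 lower and 1 higher in HL-60, where 8 were lower without HL-60 shSYK_2 replicate 1. TDO2, a tryptophan-degrading enzyme, entered by its line difference of 1.74, which came from U937, where it was at means of 2.99 with shSYK_2 and 6.36 with shSYK_1, and it was dim in MOLM-14 (-0.03, limma adjusted p = 0.929).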

How the data were processed

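RNA of the 21 cultures was measured on Affymetrix 3′ expression arrays. The authors deposited linear intensity values, made with RMA per the submitters' processing notes, with its version not given in the sources used here. A log2 transform was applied to these intensities with no pseudocount. Of 22277 probe sets, 19724 had 1 gene symbol, 568 several and 1923 none, and 62 were controls. The RefSeq gene table (GRCh38.p14) updated the symbols of 19707 probe sets, and 17 kept theirs. The probe set with the highest mean stood for each of 12165 genes.

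limma 3.58.1 in R 4.3.3 fitted 9 groups over 21 arrays, with 12 residual degrees of freedom, and adjusted p-values (Benjamini-Hochberg, two-sided, threshold 0.05) over all genes. The fit was tested on simulated data. Only 2 or 3 arrays a group limit the precision.

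The named genes were SYK, FLT3, MYC and EGR1, the 15 largest rises and falls between the hairpins with a mean log2 of at least 6 in the higher group, up to 4 called members of each list by smallest p, and 6 in each direction for the line difference. Others were named after their values were seen, among them ASNS, CHAC1, AARS1, SLC1A5, ATF4, PSPH and CEBPG. The comparison, its members and the 30 lists (627 genes, 556 measured) were chosen with earlier results of these data known. Alternatives covered the arrays in the fit, the prior, array weights, scaling, probe set choice, dim genes and a replicate block.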

Additional observations from a re-analysis of the deposited data

Results flagged for a closer look

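The difference between shSYK_2 and shSYK_1 in MOLM-14 was set against the mean of the same difference in U937 and HL-60, as an interaction in the limma model over all genes, and 77 of the named genes passed it at an adjusted p below 0.05. The values below are log2 differences of differences, MOLM-14 minus the mean of the other lines, so that a positive value means a more positive effect of shSYK_2 over shSYK_1 in MOLM-14. Some of these genes were named because of this test. HL-60 shSYK_2 replicate 1, whose labels conflict, enters the HL-60 mean, and without it the test passed for 76 of the 77, with TNFRSF10B lost.

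The difference was more positive in MOLM-14 for 43 genes. Above 1 log2 these were CTH (2.46), MAP1B (2.18), STC2 (1.85), TDO2 (1.74), S100P (1.73), TMEM255A (1.70), TBC1D16 (1.64), PSAT1 (1.58), XBP1 (1.54), APOLD1 (1.47), PIM1 (1.47), NPTX2 (1.43), MANSC1 (1.28), ETV5 (1.28), PBX3 (1.17), TRIB3 (1.09), SESN1 (1.05), ACTA2 (1.05), SLC7A5 (1.03) and ATF3 (1.00). Below it were IRF1 (0.94), H2BC5 (0.93), MEIS1 (0.83), PSMB9 (0.81), GCLC (0.79), MCM2 (0.75), RFC3 (0.69), CST7 (0.68), WARS1 (0.66), CD2BP2 (0.60), CDK4 (0.54), TYMS (0.52), ODC1 (0.52), CTSG (0.51), BYSL (0.50), BAX (0.46), H2AZ1 (0.44), CCND3 (0.38), ENO1 (0.38), TNFRSF10B (0.34), PSMB8 (0.33), MYC (0.32) and SOX4 (0.32). The group holds STC2, PSAT1, TRIB3, SLC7A5, WARS1 and ATF3 of the ATF4 list, and MEIS1, PBX3 and SOX4 of the stem-like list. STC2, MAP1B and TMEM255A were dim in both other lines, at group means of at most 3.41, where a hairpin difference could hardly be measured. The same holds in HL-60 for MEIS1 and TBC1D16, which were dim there at group means of at most 2.97. For TDO2 the value came from U937, where the gene was lower with shSYK_2, and not from MOLM-14. A positive value is also not always a rise particular to MOLM-14. H2AZ1 and CCND3 were lower with shSYK_2 in every line, by less in MOLM-14. CTSG, CD2BP2, H2BC5 and MYC were called higher with shSYK_2 in every line, by more in MOLM-14. MCM2, RFC3 and TYMS were higher in MOLM-14 and HL-60 and lower in U937.

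The difference was more negative in MOLM-14 for 34 genes. Beyond 1 log2 these were NAV3 (-2.71), MNDA (-2.70), MS4A3 (-2.48), SLPI (-2.41), FGL2 (-2.36), MYBPH (-2.32), IPCEF1 (-1.97), CYBB (-1.95), CXCL8 (-1.94), CD36 (-1.83), CYP1B1 (-1.72), S100A8 (-1.65), ARID5B (-1.58), S100A9 (-1.49), FOS (-1.35), CD86 (-1.24), CEBPD (-1.24), SGK1 (-1.16) and IL1B (-1.02). The smaller ones were TLR2 (-0.90), PRTN3 (-0.87), BCL6 (-0.83), JUN (-0.78), PECAM1 (-0.74), KLF6 (-0.73), FGR (-0.69), IRF9 (-0.67), TNFAIP2 (-0.65), LSS (-0.43), NDUFA1 (-0.40), SOD2 (-0.39), BCL2A1 (-0.39), CD163 (-0.32) and CTSA (-0.32). The surface receptors CD36, CD86 and TLR2, the S100 genes and the AP-1 subunits FOS and JUN are among them. A negative value is not always a fall particular to MOLM-14 either. CD36, CD86, TLR2, S100A8, S100A9, CYBB and LSS were called lower with shSYK_2 in every line, by more in MOLM-14. MYBPH was dim in both other lines, at group means of at most 3.87. NAV3, CYP1B1 and CEBPD were dim in U937, at group means of at most 3.38. A lower level with shSYK_2 could hardly be measured there.

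Of the 77 genes, 62 kept the call with each of the 21 arrays left out in turn and 15 lost it at least once. CD163 and TNFRSF10B lost it with 16 of the arrays, BCL2A1 with 14, MYC with 7 and SOX4 with 5. CXCL8, CCND3, BAX, SOD2, IRF9, PSMB8 and CTSA lost it with 2 each, and TBC1D16, SGK1 and FOS with 1 each. CXCL8 measured -1.24 without MOLM-14 shSYK_1 replicate 1 (limma adjusted p = 0.118).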

How the results depend on the processing

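The count of genes called between the hairpins in MOLM-14, 3155, stayed within 1.5 times under each alternative run except the test against a minimum difference of 0.5 log2, which asks for more by construction and called 432. That test called 115 for the line difference, 297 in U937, 161 in HL-60, 293 for shSYK_1 against shLuc and 110 for shSYK_2 against shLuc. Moving HL-60 shSYK_2 replicate 1 to shSYK_1, as its source name has it, left 801 for the line difference and 32 in HL-60. Array weights gave 1274 in HL-60 (the cause was not tested).

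With 1 array left out, the counts ranged from 2305 to 3494 in MOLM-14, 879 to 2096 for the line difference, 1912 to 3098 in U937, 1529 to 3596 in HL-60, 2251 to 3463 for shSYK_1 against shLuc and 1079 to 2335 for shSYK_2 against shLuc. Leaving out both HL-60 shSYK_2 arrays, a setting chosen after seeing the data, gave 3494 in MOLM-14.

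The replicate numbers were not taken to pair the arrays, although replicate 1 was high in shSYK_1 and shLuc for EGR1, CXCL8 and FOS. Same-numbered arrays of the SYK hairpins deviated together at correlations of -0.0446 in MOLM-14 cells, -0.0349 in U937 and -0.214 in HL-60. With shLuc in MOLM-14 the same-numbered pairs gave 0.0257 and 0.0067 for shSYK_2 and 0.0716 and 0.00568 for shSYK_1. With the replicate number as a block the counts were 2611 in MOLM-14, 891 for the line difference, 2235 in U937, 2061 in HL-60, 2252 for shSYK_1 against shLuc and 1224 for shSYK_2 against shLuc. Crossed numbers in HL-60, also chosen after seeing the data, gave 2224 there.

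TDO2 between the hairpins in MOLM-14, never called, turned to 0.01 after centring the arrays on their medians, to 0.13 without MOLM-14 shSYK_1 replicate 1 (-0.19 without replicate 2), and CCND2 turned to -0.02 with the mean of its probe sets (the cause was not tested). Of 121 named genes called between the hairpins, 9 lost the call with some array left out. Dim probe sets such as CD163, TDO2 and GP1BA lie near the lowest intensities of the arrays, which limits how far their differences can be measured.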
